A study of Mus musculus with 28 samples.

Results

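The nuclear genes for subunits of the oxidative phosphorylation system were followed in cells of the cranial neural crest, grown in proliferation medium or in 3 differentiation media, at high or low oxygen. They were chosen by gene symbol alone. All genes of the count table whose deposited symbol begins with Ndufa, Ndufb, Ndufc, Ndufs or Ndufv and a number, is Sdha to Sdhd, or begins with Uqcr, Cox4 to Cox8 or Atp5 were taken, without Ndufa4l2, Cox4i1, Cox4i2 and symbols that mark pseudogenes. The rule gave 79 of 54429 genes, of which 38 belong by symbol to complex I, 4 to complex II, 8 to complex III, 13 to complex IV and 16 to complex V. Of the 79, 76 were detected in every library. Atp5o, another subunit of ATP synthase, was not analysed here, so complex V and sums over the members lack it.

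The respiratory chain passes electrons from NADH (through complex I, NADH dehydrogenase) and from succinate (through complex II, succinate dehydrogenase) to ubiquinone, then through complex III (the cytochrome bc1 complex) and cytochrome c to complex IV (cytochrome c oxidase), where oxygen is consumed. Complexes I, III and IV pump protons across the inner mitochondrial membrane, and complex V (ATP synthase) uses the gradient to make ATP. Most subunits are encoded in the nucleus, while a small core of complexes I, III, IV and V is encoded in mitochondrial DNA. Low oxygen is known to change the use of the chain through hypoxia-inducible factors, and several subunits have isoforms that replace each other by tissue or by oxygen level. Not every symbol is a subunit in the strict sense. Atp5s is a coupling factor, Cox7a2l is involved in joining complexes III and IV into supercomplexes, Ndufa4 is now counted with complex IV, and Ndufb4c and Ndufs6b are annotated as processed pseudogenes.

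RNA was sequenced from O9-1 cells, a mouse line of cranial neural crest, the embryonic population that forms much of the face, in 28 libraries of 8 groups. The labels state no genetic change, and each condition was kept at 21% O2 (4 libraries per group) or at 0.5% O2 (3 libraries per group). Proliferating cells (Norm_Prolif and Hypo_Prolif) grew in STO-conditioned medium with 15% fetal calf serum, bFGF and LIF. Chondrocyte cultures (Norm_Chondr and Hypo_Chondr) spent 3 days in osteoblast medium and 7 days as micromasses on Matrigel in chondrogenic medium with 5% serum, dexamethasone, TGF-beta3 and 50 ng/ml BMP-2. Osteoblast cultures (Norm_Osteo and Hypo_Osteo) spent 10 days in medium with 10% serum, beta-glycerophosphate, dexamethasone and 100 ng/ml BMP-2, and smooth muscle cultures (Norm_SM and Hypo_SM) 3 days in medium with 10% serum. All groups come from 1 cell line, and the labels do not say whether replicates were separate cultures, so the p-values measure only the spread between these libraries. In RNA from whole cultures, fewer cells of a type and less RNA per cell cannot be told apart.

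The libraries held between 19869271 and 64693346 counts. All 10 hypoxia response genes on the marker list (among them Vegfa and Bnip3) were higher at 0.5% O2 in proliferating, osteoblast and smooth muscle cultures, and 9 of 10 in chondrocyte cultures. At 21% O2, 9 of the 10 were already higher in Norm_Chondr than in Norm_Prolif (median log2 fold change 2.04). The 3 Hypo_SM libraries stood apart. Genes of the mitochondrial genome took 13.2% to 14.5% of their counts, against 0.502% to 1.36% in the other 25 libraries, and the summed level of 5 smooth muscle markers (Acta2, Tagln, Cnn1, Myh11 and Myocd) was 28.5 to 42.3 CPM (counts per 1e6 after TMM scaling), against 3323 to 3757 CPM in Norm_SM. In proliferating cells the sum was 47.7 to 53.1 CPM at 21% O2 and 36.3 to 43.3 CPM at 0.5% O2, a range that overlaps that of the libraries labelled Hypo_SM, and Myocd had no count there. Of the 3 leukocyte markers, Cd68 was at 34.98 CPM in Hypo_SM and 0.644 CPM in Norm_SM, while Ptprc, the defining marker, was at 0.0926 CPM (3 counts). Of the osteoblast markers, Alpl (11.4 against 0.0331 CPM) and Sp7 (12.1 against 0.149 CPM) were higher in Norm_Osteo than in Norm_Prolif, while Spp1, which makes up most of their sum, was lower (1011 against 2100 CPM). The chondrocyte sum of Norm_Chondr (6989 CPM or more) lay above that of Norm_Prolif (30.7 CPM or less), and Alpl (264.9 CPM) and Sp7 (169.6 CPM) were also above their Norm_Osteo levels there. The lists were not limited to their own cultures. All 5 chondrocyte markers tested and all 5 smooth muscle markers were also higher in Norm_Osteo than in Norm_Prolif. Since Hypo_SM stood apart, counts and medians of the members there are given under 2 scalings. The main one, TMM, sets the level of most genes equal between libraries, and the other divides by library size alone. All CPM values are TMM-scaled, and the factors of 0.505, 0.517 and 0.533 in the Hypo_SM libraries make their CPM values higher than counts per 1e6 of the library total.

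Taken as 1 sum, the 79 genes were most abundant in proliferating cells at 21% O2 among the normoxic groups. They took 0.836%, 0.864%, 0.852% and 0.899% of all counts in the 4 Norm_Prolif libraries (mean 0.863% ± 0.0266 SD). The sum was 0.520% ± 0.0122 (SD, n = 4) in Norm_Chondr, 0.535% ± 0.0499 (SD, n = 4) in Norm_Osteo and 0.684% ± 0.0236 (SD, n = 4) in Norm_SM, and no library of these 3 groups reached the lowest Norm_Prolif library. At 0.5% O2 the 3 Hypo_Prolif libraries held 0.7001%, 0.7095% and 0.7002%, all below the normoxic proliferating libraries. Hypo_Chondr held 0.4933% ± 0.00860 (SD, n = 3) and Hypo_Osteo 0.467% ± 0.0238 (SD, n = 3), while Hypo_SM held 0.847%, 0.882% and 0.869%. These shares are a description without a test, and depend on what else a library holds. With TMM-scaled counts the Hypo_SM share was 1.67%, and the Norm_Prolif share 0.737%.

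**Figure D1:**
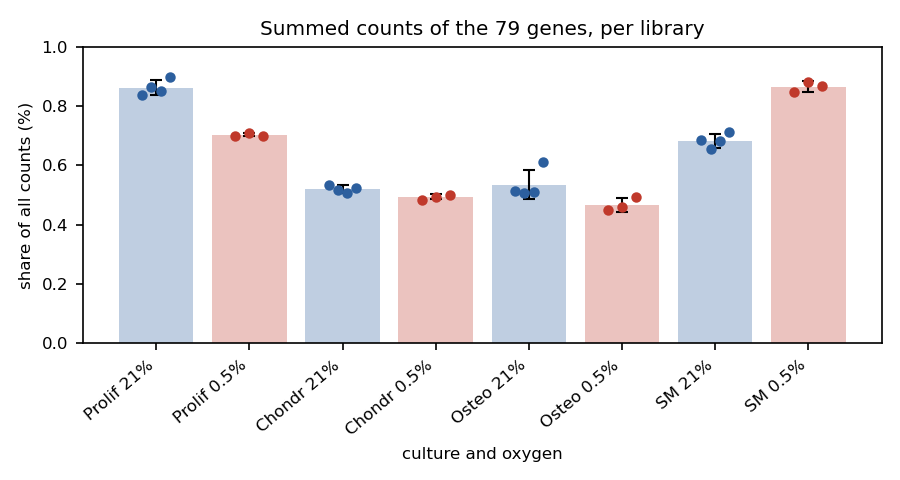
Summed counts of the 79 nuclear oxidative phosphorylation genes as a percent of all counts in each library, by culture and oxygen level (points: libraries; bars: group means; error bars: SD; blue 21% O2, red 0.5% O2). The Norm_Prolif libraries lie between 0.836% and 0.899%, and 1 Norm_Osteo library at 0.610% lies above the other 3.

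Per base of transcript, the genes differed widely in level. In Norm_Prolif, Atp5b, the catalytic beta subunit of ATP synthase, had the highest level at 763 CPM per kilobase, followed by Atp5a1, its alpha subunit, at 318 CPM per kilobase and Cox8a (a small subunit of complex IV) at 280.4 CPM per kilobase. Isoforms known from striated muscle or testis were low. Cox7a1 was at 0.118 and Cox6b2 at 0.899 CPM per kilobase, and Cox6a2 had no count. The common counterparts Cox6a1 and Cox6b1 were at 181 and 155 CPM per kilobase in Norm_Prolif.

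Most members followed a shared pattern over the libraries outside Hypo_SM. Over those 25 libraries, the correlation of each gene with the mean of the other 78 (log2 of CPM + 1) had a median r of 0.592, and 48 of the 79 had r over 0.5. The c-ring subunit gene Atp5g3 (r = 0.937) and the iron-sulfur subunit gene Sdhb (r = 0.925) were closest to the shared pattern. Ndufv3, a small subunit at the NADH-binding end of complex I, was farthest from it (r = -0.58), and 14 genes had r under 0. The libraries share groups, so these values are descriptions.

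**Figure D2:**
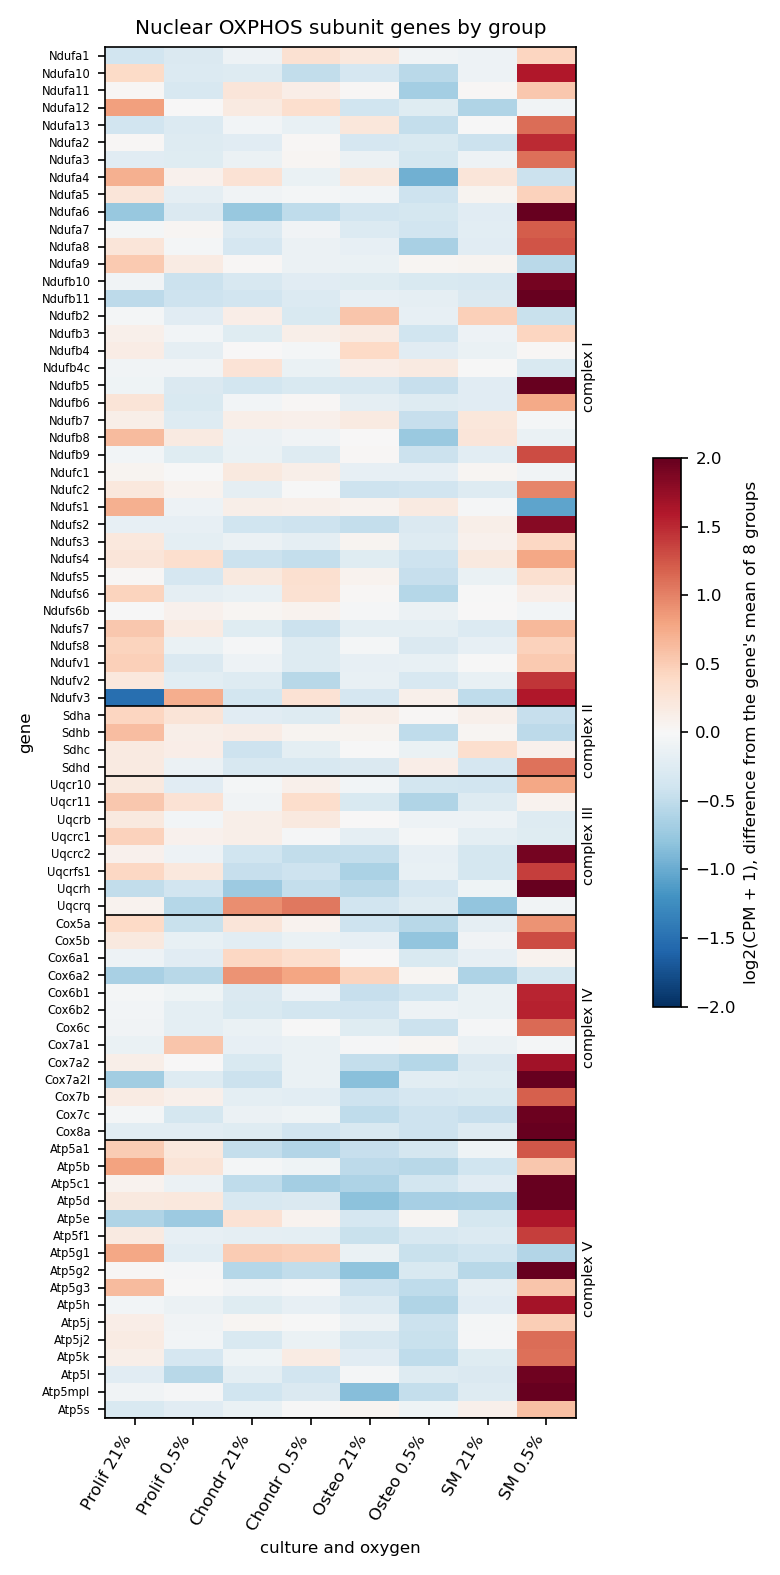
Level of each of the 79 genes (rows, by complex) in the 8 groups (columns), as the group mean of log2(CPM + 1) after TMM scaling minus the gene's mean over the groups. Most genes are highest in proliferating cells at 21% O2 or in smooth muscle medium at 0.5% O2, and Ndufv3 is lowest in proliferating cells at 21% O2; the colours of the last column depend on the scaling.

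The first comparison asked how proliferating cells at 0.5% O2 differ from those at 21% O2. Of 77 genes tested, 43 were lower at 0.5% O2 and 5 were higher, while 29 did not pass the test. Over all genes tested, 32.3% were called lower and 33.1% higher, so the share of members called lower (55.8%) was above that background. The members' median log2 fold change was -0.19, against 0.01 for all genes, and all 5 complexes had a median below 0 (from -0.27 in complex I to -0.06 in complex IV). The 43 were 22 of 38 genes tested in complex I, 3 of 4 in complex II, 6 of 8 in complex III, 3 of 11 in complex IV and 9 of 16 in complex V. The summed proliferation markers were lower at 0.5% O2 as well (953 to 1001 CPM against 1077 to 1346 CPM). All 3 genes of a list on RNA composition (mt-Rnr1, mt-Rnr2 and Rn7sk) were higher at 0.5% O2, with a summed level of 707 to 779 CPM against 220.2 to 233 CPM. The part of either list in these results was not tested.

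Atp5g1, one of the 3 genes that encode the same c-ring subunit of ATP synthase, had the largest fall. Its level was 56.1, 59.2, 55.0 and 50.8 CPM in the Norm_Prolif libraries and 27.4, 31.2 and 24.0 CPM in the Hypo_Prolif libraries, so that the groups did not overlap (log2 fold change -0.95, SE 0.08, adjusted p = 2.62e-07). Reads of Atp5g1 are uncertain, since a near-identical copy in the table held counts equal to 35.4% of its own. Cox5a, a nuclear subunit of complex IV, was at 58.1, 63.4, 56.5 and 52.6 CPM at 21% O2 and at 32.8, 31.5 and 30.1 CPM at 0.5% O2 (log2 fold change -0.82, SE 0.07, adjusted p = 1.17e-07). Ndufs1, the large iron-sulfur subunit of the electron-input arm of complex I, was at 124, 124, 125 and 121 CPM against 67.1, 67.5 and 74.8 CPM (log2 fold change -0.77). Ndufv1, which holds the flavin of that arm, fell by 0.72 on the log2 scale, and no library of one oxygen level reached those of the other for either gene.

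The ATP synthase catalytic subunits changed less. Atp5b fell by 0.49 and Atp5a1 by 0.24 on the log2 scale, while the gamma subunit gene Atp5c1 did not pass the test (-0.12, adjusted p = 0.0852). In complex II, Sdhb fell by 0.45 and Sdha, the flavoprotein, by 0.12, while Sdhc did not pass (0.01, adjusted p = 0.919). In complex III, Uqcrc1, a core protein, fell by 0.33 and Uqcrfs1, the Rieske iron-sulfur protein, by 0.14. Of the 2 other c-ring genes, Atp5g3 fell by 0.59 and Atp5g2 did not pass (0.01, adjusted p = 0.902). Sdha lost its call without Norm_Prolif replicate 3 or Hypo_Prolif replicate 1 or 2, and Uqcrfs1 without Hypo_Prolif replicate 2.

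The 5 genes called higher came from complexes I and IV. Ndufv3 rose most among well-measured genes. Its level was 22.4, 22.3, 22.0 and 24.1 CPM in Norm_Prolif and 107, 108 and 117 CPM in Hypo_Prolif, with no overlap (log2 fold change 2.34, SE 0.06, adjusted p = 1.09e-12). Ndufa6, an accessory subunit of complex I, rose by 0.54 and Cox7a2l by 0.50, and Ndufa7, another accessory subunit (named after its values were seen), by 0.13, a call that was lost with library size alone (0.05, adjusted p = 0.381). Cox7a1, the complex IV isoform known from heart and skeletal muscle, had 0, 5, 0 and 4 counts in the Norm_Prolif libraries and 28, 15 and 19 counts in the Hypo_Prolif libraries (log2 fold change 3.72, SE 0.66, adjusted p = 0.000202). Its highest group mean was 0.700 CPM, far below its common counterpart Cox7a2, which was at 49.7 CPM and 45.9 CPM and did not pass the test (-0.06, adjusted p = 0.442). Leaving out Norm_Prolif replicate 4 raised the number of genes called higher from 5 to 11.

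**Figure D3:**
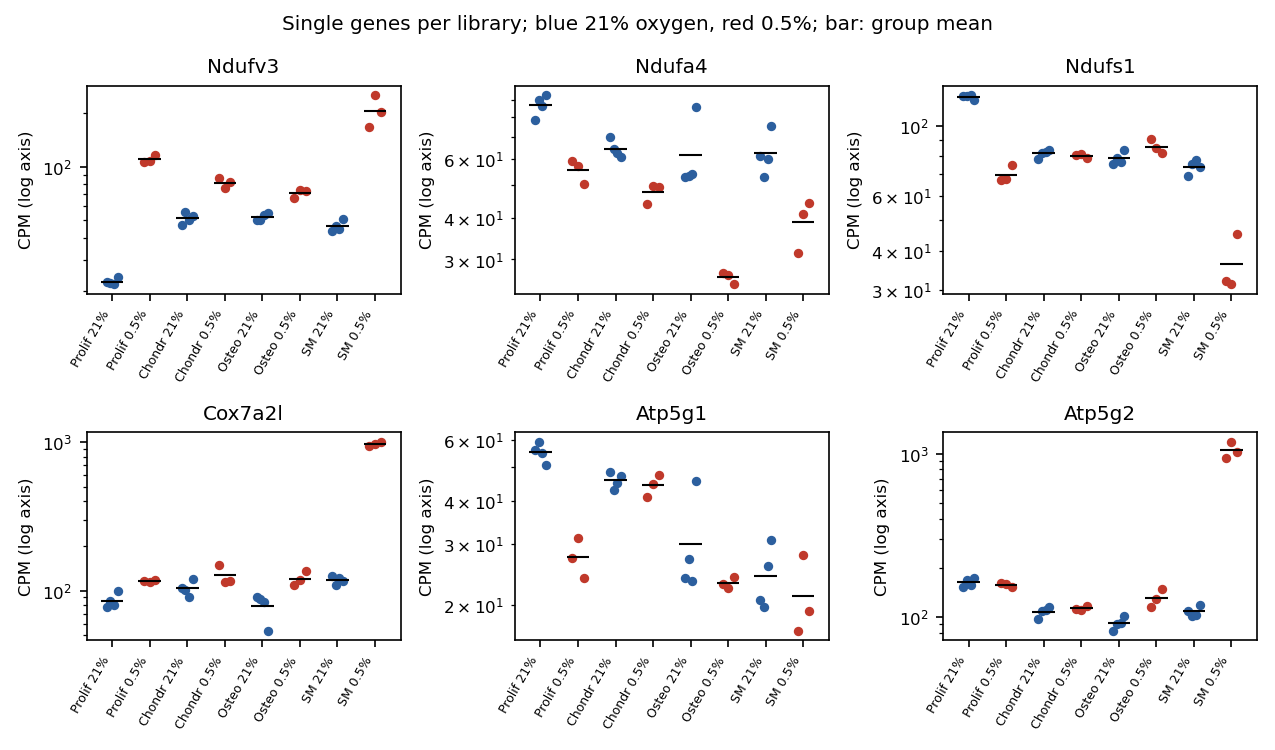
Level (CPM, log axis) of 6 genes in each library, by culture and oxygen level (points: libraries; bars: group means; TMM scaling). Ndufv3 is higher and Ndufa4 lower at 0.5% O2 in all 4 cultures, while Ndufs1 is lower at 0.5% O2 in proliferating cells and in smooth muscle medium; in Hypo_SM, Ndufv3 stays higher and Ndufa4 lower with library size alone.

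Other genes of the pathway, from lists set by name, were counted in the same fit, where 32.3% of all genes were called lower and 33.1% higher. Of 45 assembly factors tested, 21 were lower and 7 higher. Of 13 genes of the citric acid cycle, 11 were lower and 1 higher, and of 77 mitochondrial ribosomal protein genes 60 were lower and 4 higher. Of 12 regulators of mitochondrial genes tested, 7 were lower. Among them were Pprc1 (-1.96) and Ppargc1b (-1.77), coactivators of the PGC-1 family, and Nrf1 (-0.54), a transcription factor for respiratory chain genes. Cycs, which encodes cytochrome c, fell by 1.88. Of the 12 mitochondrially encoded subunits tested, 4 were higher, a share near that of all genes, and 2 lower. The isoform genes left out by the rule differed from each other. Ndufa4l2, a hypoxia-induced relative of Ndufa4, rose by 5.24, and Cox4i1, the common isoform of the regulatory subunit of complex IV, did not pass the test (0.11, adjusted p = 0.0936).

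In chondrocyte cultures the hypoxia response list had a median log2 fold change of 1.66 at 0.5% O2. It was 4.58 in proliferating, 3.67 in osteoblast and 3.99 in smooth muscle cultures, and 9 of its 10 genes were already higher in Norm_Chondr than in Norm_Prolif. Few members differed by oxygen level in chondrocyte cultures. Of 77 tested, 6 were higher and 4 lower at 0.5% O2, against 10.4% higher and 11.8% lower over all genes tested, and the members' median log2 fold change was 0.03. With library size alone, which moved the median of all genes from -0.01 to -0.08, the counts were 1 higher and 9 lower and the median was -0.05. All 4 genes called lower were complex I genes by symbol (Ndufa4, Ndufv2, Ndufs8 and Ndufa10, the last named after its values were seen), and all 4 were also lower in proliferating cells. Ndufa4 was at 70.0, 64.4, 62.4 and 60.7 CPM in Norm_Chondr and at 44.0, 49.9 and 49.6 CPM in Hypo_Chondr, without overlap (log2 fold change -0.44, adjusted p = 0.00246). Ndufv3 was at 47.2, 55.6, 50.1 and 53.1 CPM against 86.5, 75.5 and 82.5 CPM, again without overlap (0.66, adjusted p = 0.00012). Ndufs6, an accessory subunit with a zinc site, was called higher (0.46, adjusted p = 0.0454), although its groups overlapped. Its level was 20.4, 18.4, 13.9 and 16.5 CPM against 24.8, 19.7 and 27.2 CPM, and the call was lost when any of Norm_Chondr replicates 2, 3 and 4 or Hypo_Chondr replicates 1 and 3 was left out. Ndufv2, which holds an iron-sulfur cluster of complex I, lost its call without any 1 of the Hypo_Chondr libraries. The summed chondrocyte markers were at 6989 CPM or more in Norm_Chondr and at 5306 to 5570 CPM in Hypo_Chondr (5 of 6 lower). By gene, the log2 fold changes were -7.855 (Col9a1), -3.81 (Comp), -3.68 (Col2a1), -1.66 (Acan) and -1.59 (Matn3), while Col11a1 did not pass (-0.26). Of 4 proliferation markers 2 were lower, of 6 osteoblast markers 3 were lower, and of 3 smooth muscle markers tested 2 were higher and 1 lower. The part of these lists in the results was not tested. The counts depended on single libraries. The number called higher was 2 without Norm_Chondr replicate 2, 1 without Norm_Chondr replicate 3 and 1 without Hypo_Chondr replicate 3, and the number called lower was 2, 1 and 1 without Hypo_Chondr replicates 1, 2 and 3.

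In osteoblast cultures at 0.5% O2, of 77 genes tested, 20 were lower and 8 higher, against 27.3% lower and 27.0% higher over all genes, and the median log2 fold change was -0.12 against -0.03 for all genes. The share of members called lower (26.0%) was near the background, and the share called higher (10.4%) was below it. Of the 38 complex I genes 15 were lower (39.5%) and 1 higher, with a median of -0.20, and of the 8 complex III genes 2 were higher and 0 lower, with a median of 0.13 (-0.03 with library size alone). With library size alone, which moved the median of all genes from -0.03 to -0.19, 36 members were lower and 5 higher.

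Ndufa4 had the largest fall. It was at 53.1, 53.3, 54.2 and 85.7 CPM in the Norm_Osteo libraries and at 27.4, 26.9 and 25.3 CPM in the Hypo_Osteo libraries (log2 fold change -1.22, SE 0.18, adjusted p = 0.000493). The groups did not overlap, and the highest normoxic value came from replicate 4. Ndufb2, a low-level accessory subunit of complex I, fell from 6.39, 7.06, 6.61 and 5.92 CPM to 4.41, 2.85 and 3.62 CPM (-0.84, SE 0.18). Sdhb fell by 0.58 and Cox5b, a zinc-binding subunit of complex IV, by 0.65 on the log2 scale. Among the 8 genes that rose were Cox7a2l (0.61, SE 0.17), Atp5g2 (0.51, SE 0.11), Uqcrfs1 (0.50, SE 0.08), Ndufv3 (0.44, SE 0.08) and Atp5c1 (0.24, SE 0.08). Cox7a2l lost its call without Hypo_Osteo replicate 3, and Atp5c1 lost its call without Norm_Osteo replicate 1, 2 or 3 or Hypo_Osteo replicate 1 or 3. Norm_Osteo replicate 4 stood apart in the summed share (0.610% against 0.507% to 0.513% in the other 3), and without it 15 genes were higher and 23 lower. The summed proliferation markers were at 32.8 to 59.4 CPM in Norm_Osteo and at 203 to 267 CPM in Hypo_Osteo. Of 5 osteoblast markers tested 3 were higher in Hypo_Osteo, Runx2 (1.14), Ibsp (5.89) and Spp1 (2.215), while Alpl (2.69) and Sp7 (2.97) did not pass the test. The sum of the list was 4968 to 5268 CPM against 1041 to 1233 CPM in Norm_Osteo, where Spp1 made up most of it. Of the 5 smooth muscle markers 4 were lower in Hypo_Osteo, with a sum of 1717 to 2006 CPM against 3069 to 4686 CPM, and 2 of the 3 RNA composition genes were higher (795 to 866 CPM against 268 to 481 CPM). The part of these lists in the results was not tested. In the same comparison 8 of 12 mitochondrially encoded subunits were lower and 1 higher, beside 27.3% lower and 27.0% higher over all genes, and Ndufa4l2 rose by 6.22 on the log2 scale.

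**Figure D4:**
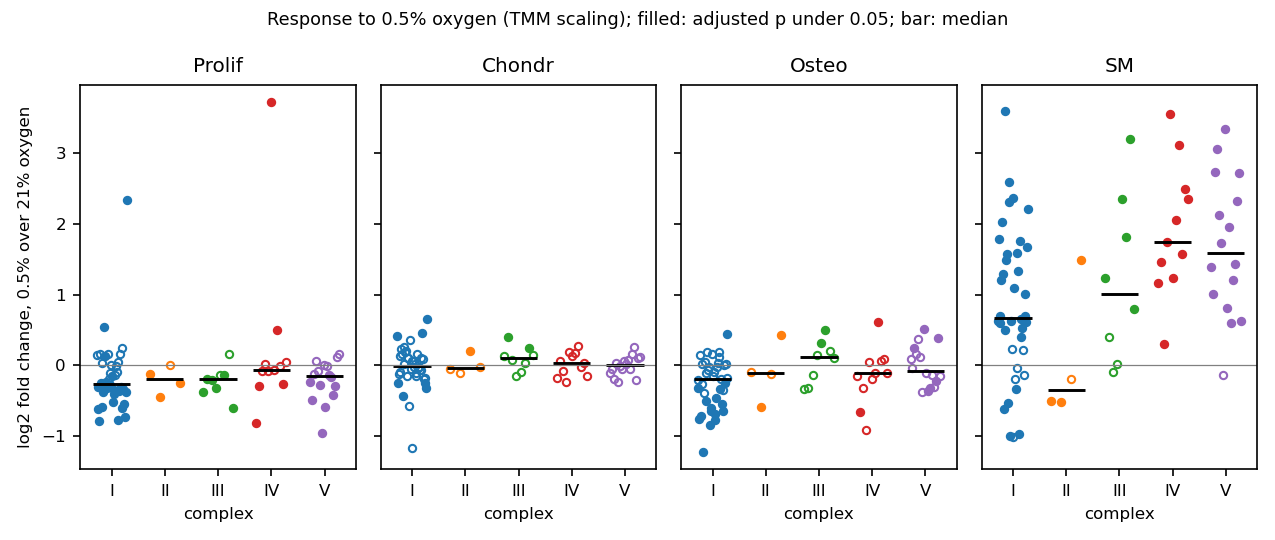
Log2 fold change of each gene at 0.5% over 21% O2 in the 4 cultures, by complex (filled points: adjusted p under 0.05; open points: not passed; bars: medians; TMM scaling). Medians lie near or below 0 in proliferating and osteoblast cultures, and in smooth muscle medium they lie between 0.68 and 1.74 for complexes I, III, IV and V and at -0.34 for complex II; with library size alone the medians of complexes I and III there turn to -0.69 and -0.36.

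Smooth muscle medium at 0.5% O2 gave the largest differences, and their direction rested on the scaling. With TMM, 59 of 77 genes tested were higher and 7 lower, against 35.4% higher and 40.2% lower over all genes, with a median log2 fold change of 1.21 against -0.12 for all genes. With library size alone, 27 were higher and 36 lower, and the median was -0.16, while that of all genes was -1.49. The members' median lay 1.33 above that of all genes, a difference that a change of scaling cannot move. Their share of all counts was 0.684% in Norm_SM and 0.866% in Hypo_SM.

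The genes differed from each other within each complex. Ndufa6 was at 50.1, 50.5, 46.0 and 56.0 CPM in Norm_SM and at 595, 593 and 566 CPM in Hypo_SM, the largest change with TMM (log2 fold change 3.59, SE 0.08, adjusted p = 1.51e-14, and 2.22 with library size alone). Atp5g2 was at 109, 102, 103 and 119 CPM against 946, 1178 and 1023 CPM (3.34, SE 0.09, and 1.97 with library size alone). Cox7a2l (3.11), Uqcrh, the hinge protein of complex III (3.19), Atp5d, the delta subunit of ATP synthase (3.05), and Atp5c1 (2.73) were also higher with either scaling. Cox6b2, known as a testis isoform, had 9, 16, 7 and 9 counts in Norm_SM and 28, 56 and 26 counts in Hypo_SM (3.55, SE 0.51), still far below Cox6b1 at 226 CPM.

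A smaller set went the other way under both scalings. Ndufs1 was at 69.2, 75.2, 77.7 and 73.9 CPM in Norm_SM and at 32.1, 31.4 and 45.4 CPM in Hypo_SM (-0.97, SE 0.12, and -2.34 with library size alone). Ndufb2 (-0.997), Ndufa4 (-0.62), Ndufa9 (-0.54), Sdhb (-0.52), Sdha (-0.50) and Ndufb8 (-0.33) were lower as well. With TMM, complex II was the 1 complex with a median below 0 (-0.34), while with library size alone the medians of complexes I (-0.69), II (-1.72) and III (-0.36) were all below 0. In complex II the membrane anchor gene Sdhd was higher with TMM (1.496). Many genes called higher with TMM had a value below 0 with library size alone, among them Atp5b (1.01 and -0.36), Atp5g3 (0.82 and -0.56), Ndufv1 (0.62 and -0.76), Cox5a (1.16 and -0.21), Cox6a1 (0.30 and -1.07) and Cox6c (1.24 and -0.13).

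The response in smooth muscle medium went with transcript length. Over 440 genes of all kinds with transcripts up to 750 bases the median log2 fold change was 1.37, and it fell with each longer range to -0.68 for 5408 genes above 3000 bases. The 40 members up to 750 bases had a median of 1.39, close to that of all genes of that length. The 9 members between 750 and 1000 bases had a median of 0.70, against 0.80 for all 534 genes of that range. The 11 members between 1000 and 1500 bases had a median of 1.496 against 0.49 for all 1299 genes of that range, and the 15 between 1500 and 3000 bases had 0.62 against -0.06. Across genes, the correlation of log2 length with the fold change was -0.32 for all genes and -0.35 for the members. In the other 3 oxygen comparisons it was between -0.03 and 0.03 over all genes, while over the members it was -0.22 in proliferating, -0.40 in chondrocyte and 0.11 in osteoblast cultures. Transcript length, the mitochondrial share (with ribosomal RNA of the mitochondrial genome at 11.6% to 13.3% of counts), the small nuclear RNA gene Rn7sk (1397 CPM against 5.93 CPM in Norm_SM), the number of genes detected (16789 to 17853 against 18806 to 19261) and the low marker expression all moved with the Hypo_SM group, and their part in the result was not tested. With TMM all 4 proliferation markers were also higher in Hypo_SM (median log2 fold change 0.62), and their part was not tested either.

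**Figure D5:**
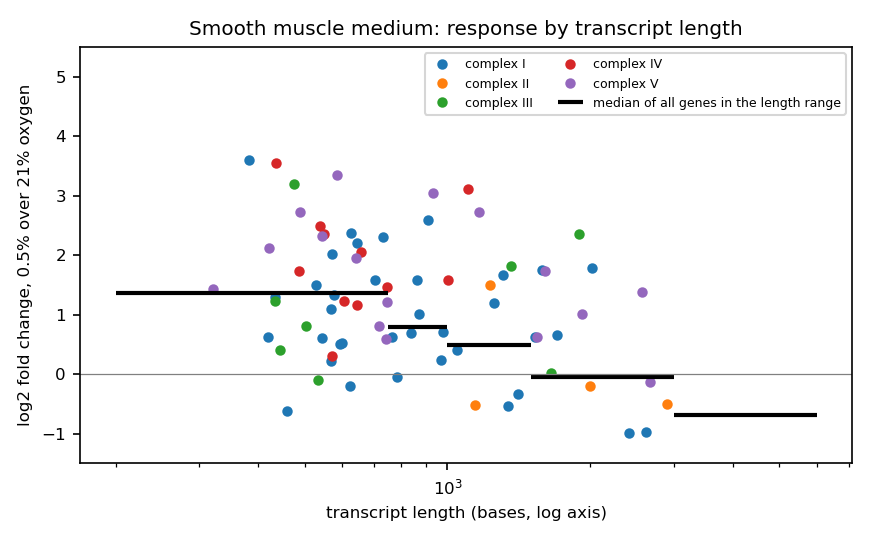
Log2 fold change of each gene in smooth muscle medium, 0.5% over 21% O2 (TMM scaling), against transcript length in bases (log axis), coloured by complex, with black lines for the median of all genes tested in each length range. The 40 genes up to 750 bases have a median of 1.39, beside 1.37 for all genes of that length; with library size alone all values are shifted down, and the members' median is -0.16.

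Mitochondrially encoded subunits and Cox4i1 were also higher in Hypo_SM. All 12 mitochondrially encoded subunits tested were higher with TMM, among them mt-Nd3 at 1.69 and mt-Nd6 at 3.28, and Cox4i1 rose by 2.88 on the log2 scale. With library size alone these values are lower by the same shift as for all genes and stay above 0. With TMM, of 77 mitochondrial ribosomal protein genes 53 were higher and 6 lower, and of 45 assembly factors 19 were higher and 18 lower, beside 35.4% higher and 40.2% lower over all genes. These counts were not recomputed with library size alone. Of 13 regulators of mitochondrial genes 8 were higher and 4 lower with TMM. Esrra, a nuclear receptor that acts with PGC-1 proteins, was higher (2.17), while Ppargc1a (-3.12) and Tfam, which packages mitochondrial DNA (-0.64), were lower.

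The upstream sequences of 4 genes are shown because these genes responded differently to oxygen. Ndufa6 and Atp5g2 were among the genes that rose most in smooth muscle medium, Sdhb was lower there, and Ndufv3 was higher in every culture. Each run is the 250 bases before the RefSeq start of the gene on GRCm38.p6, read 5′ to 3′ on the strand of the gene. Capitals mark matches on either strand to any of 4 motifs named after the sequences, which here were GCATGCG, the core of the binding motif of the transcription factor NRF1, and ACGTG, the core of the hypoxia response element. For Atp5g2 the bases after the RefSeq start were not found in the GENCODE transcripts compared, so its window may not lie before the start in use.
Ndufa6, chr15:82354292-82354541, minus strand: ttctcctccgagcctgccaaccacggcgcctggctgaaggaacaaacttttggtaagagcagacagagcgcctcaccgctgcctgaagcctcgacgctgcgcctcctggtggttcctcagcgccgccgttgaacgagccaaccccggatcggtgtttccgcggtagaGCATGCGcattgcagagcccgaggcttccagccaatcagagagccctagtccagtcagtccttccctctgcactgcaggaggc
Atp5g2, chr15:102671048-102671297, minus strand: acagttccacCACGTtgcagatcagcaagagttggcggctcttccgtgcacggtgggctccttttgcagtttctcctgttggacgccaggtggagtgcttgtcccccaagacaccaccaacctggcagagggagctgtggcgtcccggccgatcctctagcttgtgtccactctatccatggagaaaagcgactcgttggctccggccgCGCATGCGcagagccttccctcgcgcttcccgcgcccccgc
Sdhb, chr4:140961021-140961270, plus strand: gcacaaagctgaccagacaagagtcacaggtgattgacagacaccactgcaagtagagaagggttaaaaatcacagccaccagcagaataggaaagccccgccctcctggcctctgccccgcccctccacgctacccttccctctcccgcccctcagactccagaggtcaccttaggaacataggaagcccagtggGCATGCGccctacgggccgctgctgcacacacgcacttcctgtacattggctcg
Ndufv3, chr17:31519865-31520114, plus strand: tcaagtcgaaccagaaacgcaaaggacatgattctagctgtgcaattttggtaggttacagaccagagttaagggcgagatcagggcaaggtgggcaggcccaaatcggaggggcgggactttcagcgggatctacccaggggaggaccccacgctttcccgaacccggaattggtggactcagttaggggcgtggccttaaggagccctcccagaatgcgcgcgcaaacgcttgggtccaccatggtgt

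GCATGCG was found in the windows of Ndufa6, Atp5g2 and Sdhb, which went in opposite directions in smooth muscle medium, and ACGTG in that of Atp5g2. Neither was found in the window of Ndufv3. Upstream sequences were matched for 63 of the 79 genes (68 windows). Counting both strands, GCATGCG was in 13.2% of the member windows and in 3.02% of all 32851 windows. The ETS core CCGGAAG was in 17.6% and 6.91%, and the YY1 core ATGGCGG in 7.35% and 2.21%. ACGTG was in 19.1% of member windows and in 16.6% of all windows. A match describes letters and not a bound site.

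The 4 oxygen comparisons use separate libraries and can be set side by side. Of the 43 genes lower in proliferating cells, 14 were also lower in osteoblast cultures and 2 were higher. The 14 are 32.6% of the 43, beside 26.0% of all members called lower in osteoblast cultures. They are 70% of the 20 lower there, beside 55.8% of all members called lower in proliferating cells. In smooth muscle medium with TMM, 30 of the 43 were higher, which is 69.8% of the 43, below the 76.6% of all members called higher there, and 50.8% of the 59. Ndufv3 was the 1 gene called higher in all 4 cultures, and Ndufa4 the 1 gene called lower in all 4. The share of all genes called the same way in all 4 is not given here, so these counts are descriptions. Ndufv3 lies on chromosome 17 (31520115 to 31531331, plus strand) and Ndufa4 on chromosome 6 (11900292 to 11907497, minus strand) of GRCm38. Ndufv3 was higher in Hypo_SM with library size alone as well (0.83, adjusted p = 6.14e-06). The relative Ndufa4l2 was at 0, 0, 0 and 0.175 CPM in Norm_Prolif and at 1.07, 0.97 and 1.68 CPM in Hypo_Prolif. It was at 21.45, 6.65 and 7.62 CPM in Hypo_Chondr and at 14.7, 15.7 and 17.2 CPM in Hypo_Osteo.

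With TMM, more members were lower than higher in each differentiated culture at 21% O2, and the same held with library size alone. In chondrocyte cultures 43 of 77 genes were lower and 12 higher than in Norm_Prolif, against 37.2% lower and 37.7% higher over all genes. In osteoblast cultures 44 of 77 were lower and 11 higher (37.8% and 40.9% over all genes), and in smooth muscle cultures 43 of 76 were lower and 12 higher (38.9% and 40.8%). The median log2 fold changes were -0.22, -0.29 and -0.24, and the medians of all genes were 0.00, 0.07 and 0.03. Library size alone gave 59 lower and 5 higher in chondrocyte cultures, where it moved the median of all genes from 0.00 to -0.35, and 53 lower and 8 higher in osteoblast cultures, where it moved that median to -0.08. In smooth muscle cultures it gave 38 lower and 15 higher, with a median of -0.16. Without Norm_Osteo replicate 4 the osteoblast median was -0.43. These 3 comparisons share the Norm_Prolif libraries. The summed level of 4 proliferation markers (Mki67, Top2a, Cdk1 and Ccnb1) was also lower in each, at 1077 to 1346 CPM in Norm_Prolif and at most 444 CPM in the differentiated libraries. Of the hypoxia response list, 9 of 10 genes were higher and 0 lower in Norm_Chondr than in Norm_Prolif. In Norm_Osteo 4 of 10 were higher and 4 lower, and in Norm_SM 2 of 9 tested were higher and 5 lower. The part of either list was not tested.

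The catalytic core of ATP synthase was among the genes that fell. Atp5b was at 1391, 1493, 1466 and 1499 CPM in Norm_Prolif and between 534 and 821 CPM in all differentiated libraries at 21% O2, with log2 fold changes of -0.78 in chondrocyte, -1.27 in osteoblast and -1.16 in smooth muscle cultures. Atp5a1, the alpha subunit, fell by 0.92 on the log2 scale in chondrocyte and by 0.91 in osteoblast cultures. Uqcrfs1 fell by 0.81 and 1.005 in the same cultures. Ndufa12, an accessory subunit at the matrix side of complex I, fell by 1.22 in osteoblast and by 1.48 in smooth muscle cultures. All 4 genes of complex II were lower in chondrocyte and in osteoblast cultures, beside 37.2% and 37.8% of all genes. In smooth muscle cultures 3 of the 4 were lower and 1 higher, beside 38.9% and 40.8% of all genes.

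A smaller number of members rose on differentiation at 21% O2. Ndufv3 rose in all 3 cultures (1.26, 1.26 and 1.09). Atp5e, the epsilon subunit of ATP synthase, rose by 1.03 in chondrocyte cultures, and Ndufb2 by 0.76 in osteoblast and 0.68 in smooth muscle cultures. Cox6a2, the striated muscle isoform of a complex IV subunit, had 0 counts in all 4 Norm_Prolif libraries, 37, 53, 43 and 93 counts in Norm_Chondr and 39, 38, 30 and 25 counts in Norm_Osteo. Set against a floor of 3 counts over the Norm_Prolif group, it was at least 114-fold higher in Norm_Chondr and at least 65.2-fold higher in Norm_Osteo. Of 4 striated muscle markers, Myod1, Myog and Actc1 had no count in any library, and Tnnt2 was at 5.06 CPM in Norm_Chondr, 0.2545 CPM in Norm_Prolif and 0.110 CPM in Norm_Osteo. Cox6a1, the common isoform, was at 136, 157, 157 and 142 CPM in Norm_Chondr, against 99.7, 110, 99.5 and 104 CPM in Norm_Prolif (0.59, SE 0.06).

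At 0.5% O2 the same media gave other counts. In Hypo_Chondr against Hypo_Prolif 22 of 78 genes were lower and 21 higher, against 34.6% lower and 34.9% higher over all genes, and with library size alone, which moved the median of all genes from -0.02 to -0.35, 46 were lower and 7 higher. Ndufs4, an accessory subunit of complex I, had the largest fall among well-measured genes (-0.83, SE 0.08) and Uqcrq, a small subunit of complex III, the largest rise (1.67, SE 0.19). Uqcrq was at 33.5, 31.9 and 25.3 CPM in Hypo_Prolif and at 75.7, 118 and 95.7 CPM in Hypo_Chondr. In Hypo_Osteo 36 of 78 were lower and 7 higher (35.1% and 36.2% over all genes; 61 and 2 with library size alone, which moved the median of all genes from 0.00 to -0.23), with Ndufa4 (-1.07) and Ndufb8 (-0.95) lowest and Atp5e (0.81) highest among called genes with at least 10 counts on average in both groups. In Hypo_SM 61 of 77 were higher and 6 lower with TMM, against 33.8% and 36.2% over all genes, and 28 higher and 32 lower with library size alone, which moved the median of all genes from -0.07 to -1.35. These comparisons share the Hypo_Prolif libraries.

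Whether the change from proliferating cells to each culture differed by oxygen level was tested with an interaction term. It is the change at 0.5% O2 minus that at 21% O2. In chondrocyte cultures 31 of 79 genes had a positive term and 2 a negative one, against 21.6% and 21.9% over all genes, with a median of 0.19. Of the 10 hypoxia response genes 9 had a negative term there (median -2.71), and the part of that list was not tested. In osteoblast cultures 22 of the 79 members were positive and 14 negative (28.9% and 25.3% over all genes), with a median of 0.08. Library size alone moved the median of all genes there from 0.00 to -0.12 and gave 17 positive and 18 negative and a median of -0.05. The number of negative terms in osteoblast cultures was 6 without Hypo_Prolif replicate 2 and 9 without Hypo_Prolif replicate 1 or 3 or Hypo_Osteo replicate 2 or 3. That in chondrocyte cultures was 1 without Norm_Prolif replicate 2 or Hypo_Prolif replicate 2. In smooth muscle cultures 62 of 78 were positive and 1 negative with TMM (34.9% and 35.5% over all genes), and 35 and 29 with library size alone, where the median of all genes moved from -0.04 to -1.37. Without Hypo_SM replicate 2 or 3 the negative terms there were 3.

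Ndufv3 had the largest negative term in chondrocyte (-1.67, SE 0.10) and osteoblast cultures (-1.86, SE 0.10), among genes with at least 10 counts on average in every group. Its level rose on differentiation at 21% O2 and fell from 107, 108 and 117 CPM in Hypo_Prolif to 66.6, 73.9 and 72.9 CPM in Hypo_Osteo. Among called genes with that many counts, Ndufs6 had the largest positive term in chondrocyte cultures (1.08, SE 0.18) and Ndufs1 in osteoblast cultures (0.93, SE 0.09). Ndufs1 was at 121 to 125 CPM in Norm_Prolif and between 75.6 and 83.6 CPM in Norm_Osteo, but was at 67.1 to 74.8 CPM in Hypo_Prolif and at 81.7 to 91.0 CPM in Hypo_Osteo. In smooth muscle cultures, under the same limits, Atp5g2 had the largest positive term with TMM (3.37, SE 0.11) and Sdha the 1 negative term called (-0.33, SE 0.08), while Ndufb2 did not pass the test (-0.77, adjusted p = 0.0519). These smooth muscle terms cannot be read as changes on differentiation, since the marker sum of Hypo_SM overlapped that of Hypo_Prolif.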

How the data were processed

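RNA sequencing counts of 28 libraries were analysed. The authors deposited 1 table of raw counts per Ensembl gene identifier and 10 tables of pairwise comparisons, from which only the gene symbols were taken here (20019 identifiers), while 70 columns of normalised values were not used. Per the submitters' processing notes, HISAT2 2.0.5, StringTie 1.3.3b, featureCounts 1.5.0-p3 and the build mm10 were used. The annotation and the strand setting of the counting are not given in the sources used here. Library totals lay between 19869271 and 64693346 counts, which sets the counting precision.

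Genes with too few counts were removed with the default filter of edgeR (minimum count 10, minimum total 15). Counts were scaled by TMM, and each pair of groups was fitted alone with the quasi-likelihood test of edgeR 4.0.16 (R 4.3.3, robust, two-sided). P-values were adjusted by the Benjamini-Hochberg method over all genes tested, and a gene was called under 0.05. The fits were checked on simulated counts. Alternatives were DESeq2 1.42.0, limma-voom (limma 3.58.1), library size alone, other filters, all 28 libraries in 1 fit, no mitochondrial genes, a replicate block and leaving out each library.

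The members and all lists were chosen with earlier results of these data known. Named genes were a fixed list of core subunits and isoforms, the 2 called members that rose most and the 2 that fell most in each comparison (1 each way in interactions), if every group averaged 10 or more counts, the left-out isoforms and the markers. Transcript lengths are medians of GENCODE coding transcripts. Near-identical copies were sought by sequence (at least 95% identity over 50% of the length), and the copies of 3 members (Atp5g1, Atp5l and Atp5h) held over 5% of the member's own counts.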

Additional observations from a re-analysis of the deposited data

Results flagged for a closer look

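In groups of 4 libraries, a library far from the other 3 was sought in the summed share and in each named gene. Of 152 such checks 18 found one, where chance gives about 1 in 20. Norm_Osteo replicate 4 was high in 10 of the 18. Its summed share was 0.610%, and its levels were 704 CPM for Atp5b, 45.8 CPM for Atp5g1, 96.2 CPM for Atp5g3, 141 CPM for Cox6a1, 69.1 CPM for Cox6b1, 70.0 CPM for Cox7b, 85.7 CPM for Ndufa4, 44.1 CPM for Sdhb and 47.4 CPM for Uqcrq. The other 8 were spread over the groups. In Norm_Prolif, Cox7a2 was low in replicate 3 (44.9 CPM), Ndufs1 in replicate 4 (121 CPM) and Ndufv1 in replicate 1 (91.3 CPM), and in Norm_Chondr, Ndufv1 was low in replicate 3 (57.8 CPM). In Norm_SM, Cox6a1 (125 CPM) and Cox8a (168 CPM) were high in replicate 4, Ndufb8 in replicate 3 (50.5 CPM) and Cox6a2 in replicate 1 (0.122 CPM, 4 counts).

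The change from proliferating cells differed between the oxygen levels, by the interaction term, for Ndufv3 (-1.67) and Ndufs6 (1.08) in chondrocyte and for Ndufv3 (-1.86) and Ndufs1 (0.93) in osteoblast cultures. It also differed for Sdha (-0.33) and Atp5g2 (3.37) in smooth muscle medium. That last term cannot be read as a change on differentiation, since the smooth muscle marker sum of Hypo_SM overlapped that of Hypo_Prolif.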

How the results depend on the processing

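Over the 130 values of genes named by the rule in their comparison, 1917 of 1990 recomputed values kept their direction and side of the threshold, 37 lost the call, 30 gained one and 6 changed sign. The 6 were in Hypo_SM against Norm_SM with library size alone (Atp5b -0.36, Atp5g3 -0.56, Cox5a -0.21, Cox6a1 -1.07, Cox6c -0.13, Ndufv1 -0.76), where every value moves down by construction.

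With library size alone, members called higher were 1 in Hypo_Chondr, 5 in Hypo_Osteo and 27 in Hypo_SM against their normoxic groups, 5 in Norm_Chondr against Norm_Prolif, 7, 2 and 28 in Hypo_Chondr, Hypo_Osteo and Hypo_SM against Hypo_Prolif, and 35 in the smooth muscle interaction. Members called lower were then 9, 36 and 36 in the first 3, 46, 61 and 32 against Hypo_Prolif, and 29 in that interaction. Negative terms of the smooth muscle interaction were 2 with DESeq2, 3 with limma-voom, and 2 with no filter, with at least 10 counts in every library and with all 28 libraries in 1 fit. Those of the chondrocyte interaction were 1 with the last pair of settings, and those of the osteoblast interaction 9 with no filter. The cause was not tested.

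With TMM-scaled counts the summed share was 0.737% in Norm_Prolif, 0.537% in Norm_Chondr, 0.533% in Norm_SM, 0.609% in Hypo_Prolif, 0.540% in Hypo_Chondr and 1.67% in Hypo_SM. Without mitochondrially encoded genes it was 0.709% in Hypo_Prolif and 1.01% in Hypo_SM.

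Leaving out 1 library at a time gave 4 to 11 members higher in Hypo_Prolif against Norm_Prolif, 1 to 8 higher and 1 to 3 lower in Hypo_Chondr against Norm_Chondr, and 6 to 15 higher in Hypo_Osteo against Norm_Osteo. Negative interaction terms were 1 to 3 in chondrocyte, 6 to 14 in osteoblast and 1 to 3 in smooth muscle cultures.

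Replicate numbers share no stated culture or day, and deviations of same-numbered libraries correlated between -0.057 and 0.081. With a replicate block, 12 members were higher in Hypo_Prolif, 2 higher and 2 lower in Hypo_Chondr and 13 higher in Hypo_Osteo against their normoxic groups, and the other counts stayed within 1.5 times.

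Low isoforms (Cox6a2, Cox6b2, Cox7a1) rest on few counts.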
